A study of Canis lupus familiaris with 10 samples.

Results

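The normal canine lymph node is described here by its 4 small RNA libraries, named Healthy2, Healthy3, Healthy4 and Healthy5, which were taken by their titles from the 10 libraries of the series. All 320 microRNAs (miRNAs) of the count table were considered in each of them. The 4 nodes came from young purpose-bred female hound crosses that were euthanized and had no substantial clinical or blood abnormalities, and the nodes were frozen and were free of neoplasia. The other 6 libraries came from dogs with diffuse large B-cell lymphoma (DLBCL), which were hospital patients of various breeds whose nodes were biopsied under anesthesia. Origin, breed and sampling follow the diagnosis in this design and cannot be told apart from it, and the DLBCL dogs were of both sexes. The study lists no age for the DLBCL dogs, so a part of age in any difference between the groups cannot be told apart either. Each dog gave 1 library, and neither the site of the normal nodes nor their cell composition is stated, so that fewer cells of a type and less miRNA per cell cannot be told apart.

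MiRNAs are short RNAs cut from hairpin precursors that guide Argonaute proteins to matching sites in messenger RNAs and lower their translation or stability. A normal lymph node holds mainly B and T lymphocytes on a scaffold of reticular fibroblasts, with macrophages, dendritic cells, lymph sinuses and specialised venules. Each of these cells has its own miRNAs, such as miR-150 of resting lymphocytes, miR-155 of activated ones, miR-223 of myeloid cells, miR-126 of endothelium and miR-143 of smooth muscle and fibroblasts.

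Between 30432969 and 34709421 reads were counted on miRNAs in each healthy library, and Healthy2 was the deepest. These reads were 81.6% to 89.4% of the small RNA reads that the study lists as mapped in those libraries, against 36.8% to 69.1% in DLBCL. Levels are given in TPM, the reads of a miRNA per 1000000 reads counted on all listed miRNAs of the library, with no term for length because mature miRNAs are of like length. A TPM is a share, so that a miRNA that takes more of a library leaves less for the others. No pair of healthy libraries was a duplicate, since their counts differed with a chi-squared per degree of freedom of at least 1865.

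A single miRNA made up most of each normal node. miR-148a, which is known in B cells as a promoter of plasma cell differentiation, took 73.6% of the miRNA reads in Healthy2, 55.7% in Healthy3, 63.0% in Healthy4 and 51.5% in Healthy5. Its mean share was 61.0% ± 9.67 (SD, n = 4). Exact 95% binomial intervals, which cover counting error only, were narrow at this depth, from 51.51% to 51.55% in Healthy5 and from 73.57% to 73.60% in Healthy2, so that the range between dogs was far wider than counting error. As a share of all mapped small RNA reads, miR-148a had a mean of 52.0% ± 9.96 (SD, n = 4).

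The remaining reads were also held by few miRNAs. Ranked by their mean level, 12 miRNAs held 90% of the reads and 58 held 99%. With miR-148a taken out of the total, 4 miRNAs held 50% of the rest, 26 held 90% and 78 held 99%. The exponential of the Shannon entropy of the shares gives an effective number of miRNAs, the number of equally abundant miRNAs that would give the same evenness. It was 3.90 in Healthy2, 7.75 in Healthy3, 5.83 in Healthy4 and 8.66 in Healthy5, the reverse of the order of their miR-148a shares. Without miR-148a the same libraries had effective numbers of 19.4, 21.5, 19.8 and 20.6, with a mean of 20.3 ± 0.944 (SD, n = 4).

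**Figure D1:**
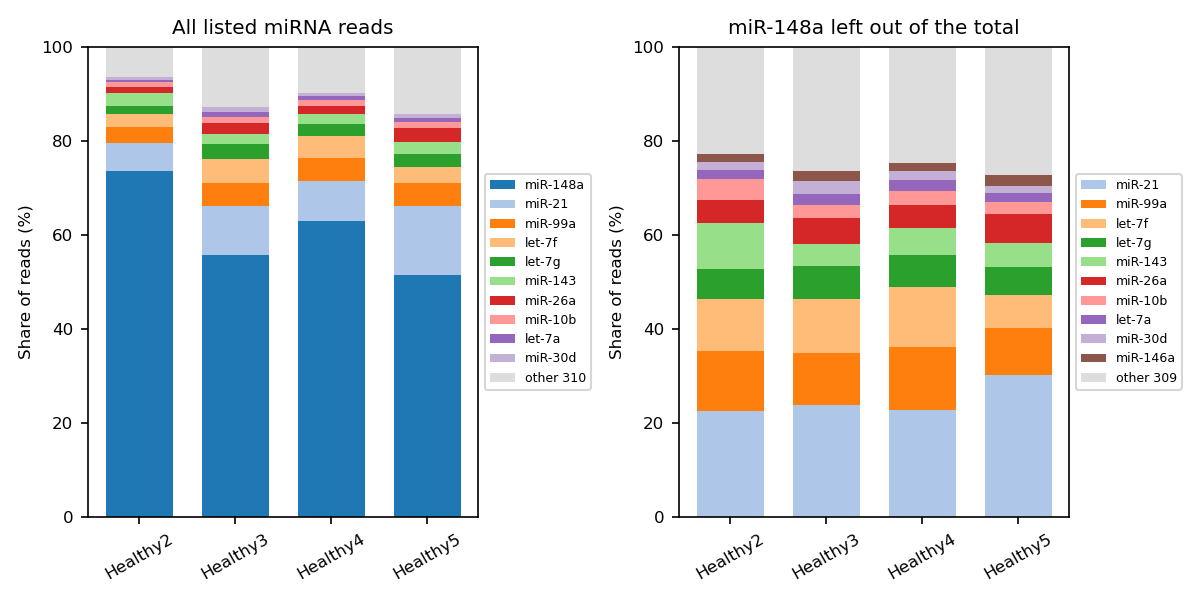
Stacked bars show the percentage of miRNA reads taken by the 10 most abundant miRNAs in each healthy library, with all 320 miRNAs in the total (left) and with miR-148a left out of the total (right). miR-148a filled 51.5% to 73.6% of every bar on the left, and miR-21 was the largest segment of every bar on the right.

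The order of the most abundant miRNAs was much the same in the 4 dogs. miR-148a was first, miR-21 second, and 16 miRNAs stood among the 20 most abundant of all 4 libraries. Of the 20 with the highest mean level, Healthy2 had 20 among its own 20 highest, Healthy3 and Healthy4 had 19 each, and Healthy5 had 17. With any one library removed, 19 or 20 of these 20 miRNAs were still among the 20 highest.

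miR-21, which targets the apoptosis regulator PDCD4 and is abundant in many tissues, had 59465, 105233, 84288 and 145927 TPM in Healthy2 to Healthy5. It was lowest where miR-148a was highest and highest where miR-148a was lowest. As a share of the reads other than miR-148a it was 24.8% ± 3.58 (SD, n = 4). miR-99a, which targets MTOR, followed with 33735 TPM in Healthy2 and between 48687 and 49452 TPM in the other 3. miR-143, which is transcribed with miR-145 in smooth muscle and fibroblasts, was between 21064 and 25739 TPM, a narrow range as a share of reads. miR-26a, a regulator of EZH2, ranged from 12857 TPM in Healthy2 to 29111 TPM in Healthy5. Of the others among the 20, miR-30a was between 5020 and 11234 TPM and miR-191 between 2321 and 6414 TPM. miR-26b was between 2032 and 6817 TPM and miR-27b between 2604 and 6261 TPM. Each was highest in Healthy5 in TPM, where 92 of the 147 miRNAs used below for the spread between dogs were highest. None of them was highest in Healthy5 on the TMM scale, which is explained with that spread.

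miR-10b and miR-10a lie in the HOX gene clusters, and both took a nearly constant share. miR-10b had 12006, 11985, 11681 and 12353 TPM in Healthy2 to Healthy5, a coefficient of variation of 2.29%. miR-10a was between 2922 and 3948 TPM, and its coefficient of variation was 13.1%. These shares are of totals that include miR-148a. On the scale that weighs all miRNAs (TMM, explained with the spread between dogs), the SD of log2 miR-10b was 0.61, so its steadiness held on the share scale and not on the other.

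Next came the let-7 family, which restrains proliferation in differentiated cells by targeting genes such as RAS, MYC and HMGA2. Its 8 listed members, miR-98 included, were all read in all 4 libraries, and together they took 5.27%, 9.56%, 8.29% and 7.60% of the reads in Healthy2 to Healthy5. The mean was 7.68% ± 1.80 (SD, n = 4), or 19.9% ± 2.99 of the reads other than miR-148a. let-7f alone held 52.2% of the family's reads, with 28971 to 50275 TPM, and let-7g followed with 17360 to 31766 TPM. let-7a, from 4643 to 10132 TPM, lay under both, and let-7b and let-7c had means of 1162 and 1129 TPM. miR-98, let-7e and let-7d were the lowest, with means of 424, 173 and 46.1 TPM. Members of this family differ by few bases, so the split between them depends on how the counting shared such reads.

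The families were formed by name, as their conventional members, and among the 23 formed the 10 with the largest shares ranged from 61.2% for the miR-148 and miR-152 family to 0.282% for miR-181. In 3 of these 10 a single member held at least 96.5% of the family's reads. miR-148a made 99.7% of the reads of its family, and miR-148b and miR-152 had means of 808 and 1171 TPM. miR-99a made 98.9% of the miR-99 family, whose other listed member, miR-99b, had a mean of 492 TPM, and miR-146a made 96.5% of the miR-146 pair. The miR-30 family was the most evenly shared of the large ones. Its lead member, miR-30d, held 40.1% of its reads, miR-30a had a mean of 7300 TPM and miR-30c of 3331 TPM, and the family took 2.0% ± 0.63 (SD, n = 4) of all reads.

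The miR-26 family took 2.53% ± 0.917 (SD, n = 4), the miR-10 family 1.55% ± 0.0719, the miR-27 family 0.63% ± 0.237 and the miR-25/92 family 0.620% ± 0.198. miR-25 was the lead of the last, with a mean of 3358 TPM, ahead of miR-363 with 1563 TPM and miR-92a with 1231 TPM. miR-92a belongs to the miR-17/92 cluster, which promotes lymphocyte proliferation, and was its most abundant member. The other families of that cluster took smaller shares than the miR-25/92 family. The miR-17 family (6 members, with miR-93 and miR-106b from another cluster) took 0.131% ± 0.114 of the reads. miR-17 is counted in it by name, and the arm behind that name is not given. The miR-19 pair took 0.00816% and the miR-18 pair 0.00168%. The tumor suppressor families miR-15/16 and miR-29 took 0.191% ± 0.121 and 0.195% ± 0.12. The family that joins miR-34, which is induced by p53, with miR-449 took 0.00341%. The family of miR-130 and miR-301 took 0.00235% and the miR-200 family 0.00149%.

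The label of the tissue was set against miRNAs of known cell types. All 7 leukocyte miRNAs were read in every healthy library with a mean of at least 100 TPM, and together they took 2.45% ± 0.892 (SD, n = 4) of the reads. miR-146a, a brake on NF-kB signaling, had 4381, 9621, 6909 and 10702 TPM in Healthy2 to Healthy5. miR-155, which is needed for germinal center responses, had 2179, 6278, 4306 and 4537 TPM. miR-142, a miRNA of all blood cells, had 2167, 4816, 3417 and 3752 TPM. In TPM all 3 were lowest in Healthy2, the library with the highest share of miR-148a. Most miRNAs were lowest there in TPM, 116 of the 147 used below for the spread between dogs. On the TMM scale all 3 were lowest in Healthy5.

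miR-150, which is abundant in resting mature lymphocytes and restrains MYB, was also lowest in Healthy2 in TPM but ordered the other 3 differently. On the TMM scale it too was lowest in Healthy5. It had 2104 TPM in Healthy2, 7878 in Healthy3, 9514 in Healthy4 and 3780 in Healthy5, so that Healthy3 and Healthy4 stood above the other pair. miR-342, another lymphocyte miRNA, was far lower, from 48.6 to 157 TPM. miR-181a, which tunes antigen receptor signaling, was between 734 and 3797 TPM, and miR-181b between 157 and 706 TPM. The ratio of miR-181a to miR-181b was 5.19 ± 0.494 (SD, n = 4). miR-223, the myeloid marker, was between 8.56 and 34.2 TPM.

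Of the 7 miRNAs of smooth muscle and fibroblasts, all were read in every library, and together they took 7.29% ± 0.785 (SD, n = 4) of the reads. miR-99a made 62.2% of that sum and miR-143 most of the rest. miR-199, a miRNA of mesenchymal cells, had 1827, 2065, 1302 and 4497 TPM in Healthy2 to Healthy5. miR-125b, miR-145 and miR-218 had means of 818, 546 and 262 TPM, and miR-214 one of 66.0 TPM. miR-126, the endothelial marker, had 67.8, 109, 59.0 and 443 TPM, so that Healthy5 stood apart from the other 3.

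Red blood cell miRNAs were present at low shares. miR-451, which is made without Dicer in red cell precursors, had 437, 792, 488 and 814 TPM in Healthy2 to Healthy5. miR-144, which lies beside miR-451 in the genome, had 2, 22, 2 and 202 reads in the same libraries, or 6.57 TPM in Healthy5. miR-486 was between 59.8 and 135 TPM. The name miR-486-3p gave values within 3.77% of those of miR-486 in every library, so the pair was read as 1 measurement.

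Some miRNAs known from other organs were read in all 4 nodes. Of the 3 miRNAs of the exocrine pancreas, miR-216b had 764, 842, 736 and 631 TPM in Healthy2 to Healthy5, miR-217 between 198 and 307 TPM, and miR-216a between 25.9 and 75.8 TPM. Their sum was 1036 ± 78.4 TPM (SD, n = 4), a narrow range as a share of reads. On the TMM scale the SD of log2 miR-216b was 0.71. miR-7, abundant in endocrine cells, was the 14th most abundant of all, with 3779 to 6398 TPM, while miR-375, the defining marker of those cells, stayed between 0.519 and 4.67 TPM. miR-499, which is encoded in the muscle gene MYH7B, had 314 to 656 TPM. Of the same muscle list, miR-1, miR-206 and miR-133c had means of 15.9, 4.95 and 1.30 TPM. miR-208a, miR-208b and miR-133b of heart and skeletal muscle did not exceed 0.163 TPM in any library. miR-192, a miRNA of liver, gut and kidney, was between 276 and 643 TPM. Of the same list, miR-194 and miR-215 had means of 89.9 and 10.03 TPM. miR-122, which marks hepatocytes, stayed between 0.228 and 1.40 TPM. The part of cells of those organs in these levels was not tested.

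Most members of the epithelial, neuronal, embryonic and eye lists were rare. Of 7 epithelial miRNAs, miR-200b and miR-429 had no read in the 4 libraries and miR-200a and miR-205 did not exceed 0.131 TPM, while miR-200c, miR-203 and miR-141 had means of 10.7, 7.20 and 4.08 TPM. Of 7 miRNAs of neurons and glia, miR-137 had no read, miR-124 was at most 0.163 TPM, and miR-9 alone exceeded 10 TPM on average, with 29.8 to 99.7 TPM. The 10 miRNAs of embryonic and germ cells summed to between 0.663 and 1.63 TPM. In the eye and pigment list, miR-204 had a mean of 13.3 TPM and the other 2 members at most 1.14 TPM. The DLK1-DIO3 cluster is an imprinted locus that is active in mesenchymal and neural cells. Of its 33 listed members, 27 were read in all 4 libraries and 17 had a mean of at least 1 TPM. miR-381 led them with 246 to 664 TPM and held 53.7% of the cluster's reads.

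**Figure D2:**
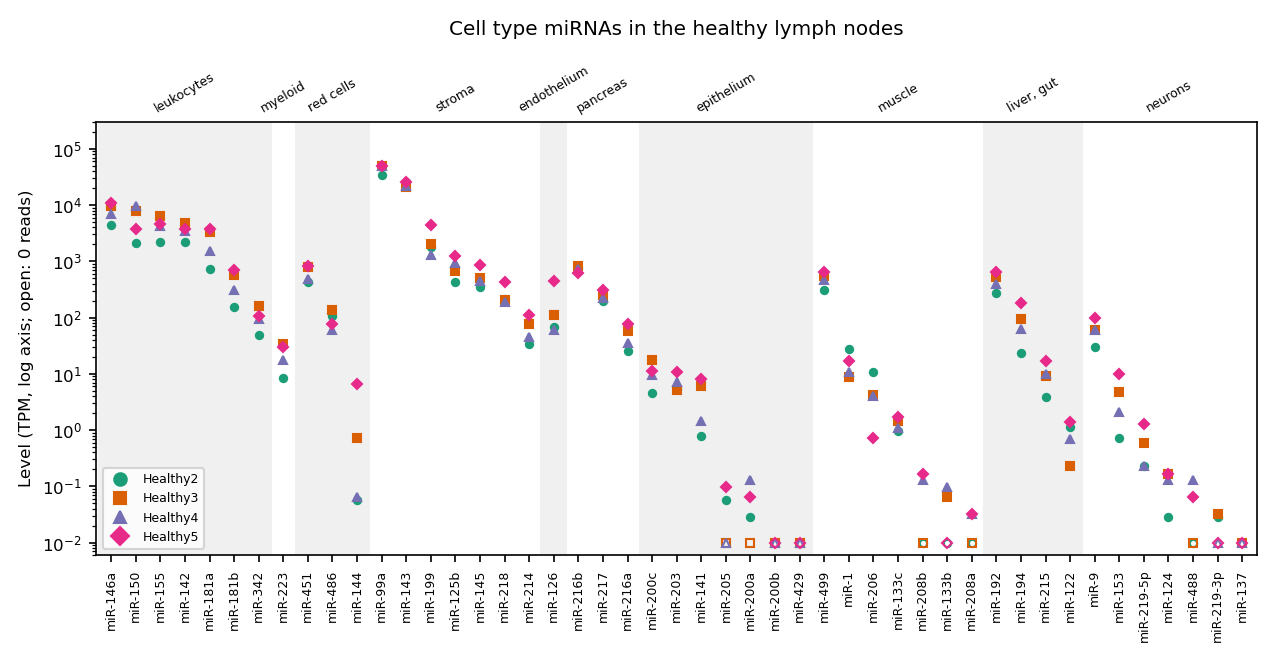
Each point is the level of 1 miRNA in 1 healthy library (TPM, log axis), ordered by cell type list, with open points at the bottom for libraries with 0 reads. The lowest value of the leukocyte miRNAs and of those of smooth muscle and fibroblasts was that of miR-214 in Healthy2, 33.8 TPM, while miR-200b, miR-429 and miR-137 had no read in any.

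Most listed miRNAs were rare. On average 39 miRNAs had at least 1000 TPM, a further 50 had 100 to 1000 TPM and 60 had 10 to 100 TPM. The 74 miRNAs between 1 and 10 TPM together took 0.0262% of the reads, and the 78 below 1 TPM that were read at all took 0.00164% (43 miRNAs of at least 0.1 TPM) and 0.000118% (35 under 0.1 TPM). In each library 275 to 290 miRNAs had at least 1 read, and Healthy5 had the most. In all 4 libraries 257 miRNAs had a read, in 3 of them 17, in 2 of them 14, in 1 of them 13, and in none of them 19. With at least 10 reads asked of every library, 218 miRNAs remained.

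**Figure D3:**
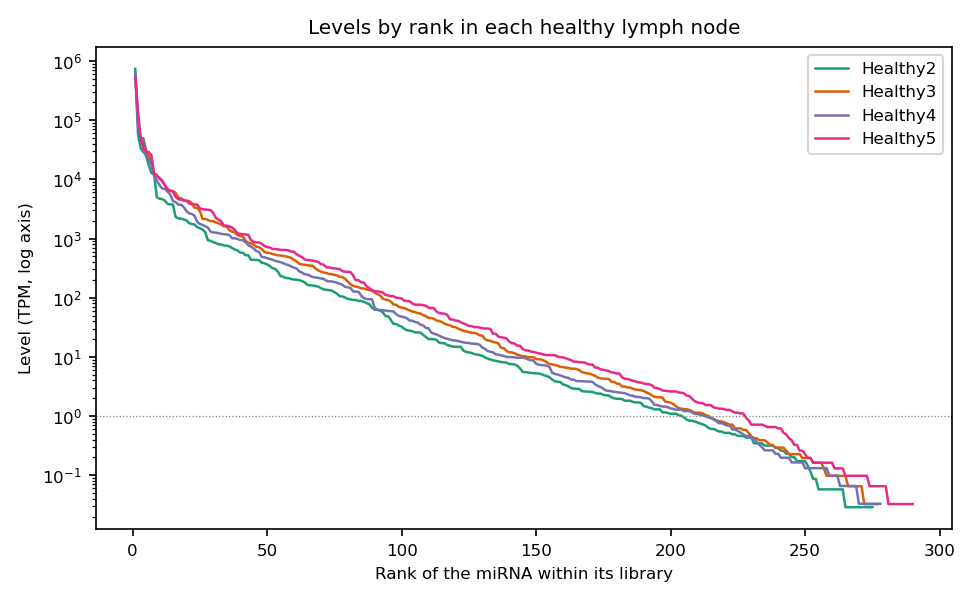
Curves show the level (TPM, log axis) of the miRNAs of each healthy library against their rank within it, down to the last miRNA with a read, and the dotted line marks 1 TPM. At rank 100 the curves stood at 32.4 TPM in Healthy2, 68.2 in Healthy3, 48.0 in Healthy4 and 96.7 in Healthy5, and this order also held at ranks 50, 150 and 200.

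A miRNA without a read is limited to 3 reads per library, between 0.0864 and 0.0986 TPM at these depths, or to 0.0237 TPM over the 126676680 reads of the 4 libraries. The 19 miRNAs without a healthy read were rare in the DLBCL nodes too. The germ line miRNA miR-514 had 44 reads over the 6 DLBCL libraries, epithelial miR-429 had 21 and miR-875 had 19, and these 3 were the only ones with at least 10 reads in any DLBCL library. Next by reads were miR-33b, which lies in the lipid regulator SREBF1, with 7, neuronal miR-137 with 5, and miR-8883 with 4. miR-8800, miR-8809, miR-8824 and miR-8835 had 2 reads each, and the other 9 had 1 read each. Of the 19 names, 7 belonged to the 30 listed from miR-8800 to miR-8908, a block of late-numbered names in which 8 miRNAs had a mean of at least 1 TPM. In the other direction, miR-325, miR-346, miR-384, miR-876, miR-8810, miR-8902 and miR-8908f had no read in DLBCL and at most 3 reads over the 4 healthy libraries. Those counts do not exceed the 3 reads that a count of 0 allows in 1 library, so a difference in presence was not detectable for these 7 miRNAs at this depth.

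A group of low miRNAs was all but missing from a single healthy dog. miR-8908a-3p had 284 reads in Healthy2, 0 in Healthy3, 233 in Healthy4 and 363 in Healthy5. miR-8908a-5p, the other arm of that hairpin, had 36, 0, 44 and 113 reads, miR-8908b 77, 1, 76 and 177, and miR-8908d 60, 0, 44 and 109. The 6 listed miR-8908 names together had 468, 1, 401 and 766 reads, while the total miRNA reads of Healthy3 were near those of Healthy4 and Healthy5. Among all 320 miRNAs, exactly these 4 had at most 1 read in one healthy library and at least 30 in each of the other 3, a rule chosen after the values were seen. In the DLBCL libraries the 6 names together had between 0 and 70 reads. Several of the names have more than 1 gene copy, 4 for miR-8908a and 3 for miR-8908d, so the 4 names cannot be taken as independent measurements.

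The spread between the 4 nodes was measured as the SD of log2 counts per 1000000 reads (CPM) after TMM scaling, which sets the libraries to a common level over most miRNAs instead of over all reads, with a prior count of 2. The TMM factors were 0.594 for Healthy2, 1.25 for Healthy3, 0.849 for Healthy4 and 1.59 for Healthy5, lowest where miR-148a was highest. Over the 147 miRNAs with a mean of at least 10 CPM the median SD was 0.45, with quartiles of 0.28 and 0.61. The median SD that counting error alone gives at these depths was 0.020 on the same scale, and differences between dogs and between library preparations cannot be told apart. The common biological coefficient of variation from edgeR was 37.4% among the 4 healthy libraries. Highest and lowest libraries differed by less than 2-fold for 73 of the 147 and by more than 4-fold for 13. The median SD was 0.36 for the 39 miRNAs of at least 1000 CPM, 0.53 for the 58 between 10 and 100 CPM, and 0.68 for the 73 between 1 and 10 CPM. With libraries scaled by total miRNA reads, as in TPM, the median SD over miRNAs of at least 10 CPM rose to 0.64. Without Healthy5 it was 0.28, a drop of over 1.5-fold.

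Among the 89 miRNAs of at least 100 CPM, the 10 steadiest had SDs of 0.10 to 0.14. let-7b had the smallest SD on this scale, with 1101, 1108, 1191 and 1006 CPM in Healthy2 to Healthy5. miR-26a (0.11), miR-192 (0.11), miR-30c (0.11), miR-98 (0.11), miR-146a (0.12), miR-21 (0.12), miR-191 (0.13), miR-148b (0.13) and miR-1271 (0.14) followed, in SD of log2 CPM. miR-21 thus moved 2.45-fold between dogs as a share of reads and 1.19-fold on the TMM scale. None of these 10 was among the 10 steadiest when libraries were scaled by total miRNA reads, and 9 of them were with DESeq2's size factors, where miR-26a and miR-192 had smaller SDs than let-7b. Without Healthy5, 4 of the 10 remained among the 10 smallest.

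Among the 89, miR-150 had the largest SD of log2 CPM in TMM scaling, 0.98, and it was between 0.71 and 1.13 with each library left out. Without Healthy4 or without Healthy5, miR-379 (1.14 and 1.06) was above miR-150 (0.71 and 0.78). miR-126 (0.94) was above miR-150 (0.93) with DESeq2's size factors, and miR-374a (1.43), miR-20a (1.36) and miR-126 (1.33) were above it (1.0) with total miRNA reads. It had 3545, 6311, 11209 and 2378 CPM in Healthy2 to Healthy5, a 4.71-fold range, and its range as a share of reads was 4.52-fold. miR-379 of the DLK1-DIO3 cluster had 339, 92, 116 and 81.0 CPM, with Healthy2 apart from the other 3. miR-30e had 1332, 911, 1157 and 321 CPM, with Healthy5 lowest. miR-182 and miR-197 were also lowest in Healthy5, at 62.3 and 66.7 CPM against at least 180 and 201 CPM in the other 3 libraries.

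miR-126, miR-374a and miR-20a, a member of the miR-17/92 cluster, were highest in Healthy5. miR-126 had 114, 87.6, 69.6 and 279 CPM in Healthy2 to Healthy5, miR-374a 597 CPM in Healthy5 and 155 to 276 CPM in the others, and miR-20a 305, 477, 396 and 1040 CPM. miR-486 had its highest value, 178 CPM, in Healthy2. miR-148a itself was the 7th most variable of the 89 on this scale, with an SD of 0.85 and a 3.83-fold range, against a 1.43-fold range as a share of reads. It takes most of the total, so a share understates how far it moved relative to the other miRNAs. Of the 10 largest SDs, 3 were among the 10 largest with total miRNA reads and 4 without Healthy5. Without that library the SDs of miR-126, miR-374a, miR-30e, miR-20a, miR-182 and miR-197 were 0.41, 0.37, 0.32, 0.27, 0.24 and 0.13, and without Healthy2 that of miR-379 was 0.26, so each of these 7 rested on a single library.

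**Figure D4:**
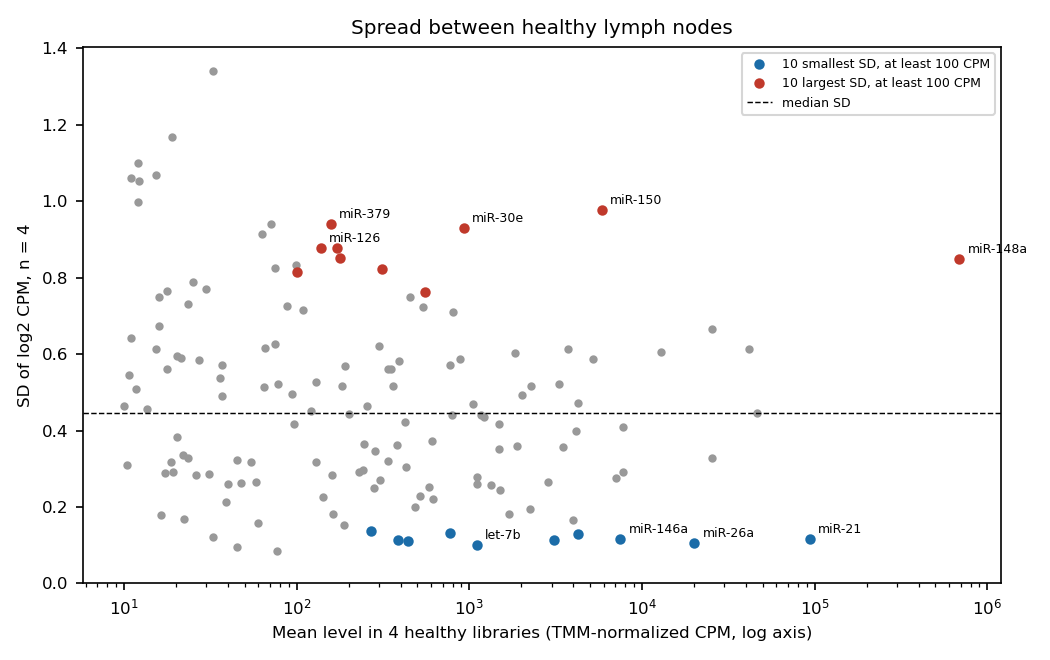
Each point is 1 of the 147 miRNAs with a mean of at least 10 CPM in the healthy libraries, plotted as the SD of log2 CPM over 4 libraries against the mean level (TMM-normalized CPM, log axis), with the 10 smallest and 10 largest SDs among miRNAs of at least 100 CPM in color. The dashed line is the median SD of 0.45, and miR-150 (SD 0.98) had the highest SD of the colored miRNAs, while miR-148a (SD 0.85) lay at the far right.

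Neighbouring miRNA genes gave very unequal levels. A gene in the RefSeq annotation of assembly UU_Cfam_GSD_1.0 was found for 315 of the 320 names, and 149 had another listed miRNA within a chain of genes less than 10 kb apart, in 54 such clusters. These 149 took 17.0% of the reads, or 44.0% of the reads other than miR-148a. miR-143 exceeded miR-145 by 48.2-fold ± 19.3 (SD, n = 4), and the ratio ran from 29.1 in Healthy5 to 74.7 in Healthy2. let-7f exceeded let-7d, its neighbour, by 892-fold ± 179. miR-30d exceeded miR-30b by 19.7-fold ± 8.10, miR-191 exceeded miR-425 by 5.47-fold ± 2.14, and miR-532 exceeded miR-188, in the same cluster on chromosome X, by 221-fold in Healthy5 and by 778-fold or more in the other 3, where miR-188 had 6 to 64 reads.

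Other neighbours were nearly level. miR-24 and miR-27a differed by 1.22-fold ± 0.245, and miR-363 and miR-92a by 1.29-fold ± 0.343, although miR-24 and miR-92a each have a further gene copy that adds to their reads. In the miR-17/92 cluster, miR-92a exceeded miR-20a by 2.86-fold ± 1.5, and miR-20a was above miR-92a in Healthy5 alone. The other members of that cluster were low, with means of 74.2 TPM for miR-19b, 15.8 for miR-18a, 7.39 for miR-19a and 4.41 for miR-17. The counted name miR-17 carries no arm, and the study's PCR panel lists it as miR-17-3p, beside miR-20a-5p and miR-18a-5p. Its level may therefore be that of another arm than theirs, which was not tested. Levels of different miRNAs compare reads and not molecules, since adapters are not ligated to all sequences equally well.

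The arms of a hairpin could be compared for 3 further pairs of names. miR-135a-5p had a mean of 4.94 TPM and miR-135a-3p 0.514 TPM, miR-219-5p had 0.578 and miR-219-3p 0.0153 TPM, and miR-8908a-3p had 6.91 and miR-8908a-5p 1.54 TPM. Most names carry no arm, and the reads of their other strand were not analysed here.

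The profile of the normal node was then set beside that of DLBCL, to show where it is particular. The effective number of miRNAs was 6.53 ± 2.12 (SD, n = 4) in healthy nodes and 16.4 ± 4.41 (SD, n = 6) in DLBCL, where it ran from 10.5 to 21.8. The groups did not overlap (exact two-sided permutation over libraries, p = 0.00952, which is the minimum for 4 against 6, and 0.0333 after Benjamini-Hochberg adjustment over the 7 library values compared). The miR-148a share, between 17.8% and 39.0% in DLBCL, gave the same exact permutation p. Without miR-148a the effective numbers were 20.3 ± 0.944 and 23.4 ± 5.20 and the difference did not pass (exact permutation p = 0.314). The number of miRNAs with a read, thinned by calculation to the depth of the smallest library, was 267 ± 6.46 in healthy nodes and 266 ± 15.4 in DLBCL (exact permutation p = 0.933). All 4 healthy libraries and 2 of the DLBCL libraries, DLBCL4 and DLBCL6, had a Q30 (the share of bases called with high confidence) below 97% in the study's read statistics. Among these 6 libraries the effective number was 6.53 against 21.5, a comparison whose exact permutation p cannot go below 0.133. Within them the groups were also apart in the effective number without miR-148a, 20.3 against 28.0, and in the thinned number of miRNAs, 267 against 279, with that same limit on p.

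**Figure D5:**
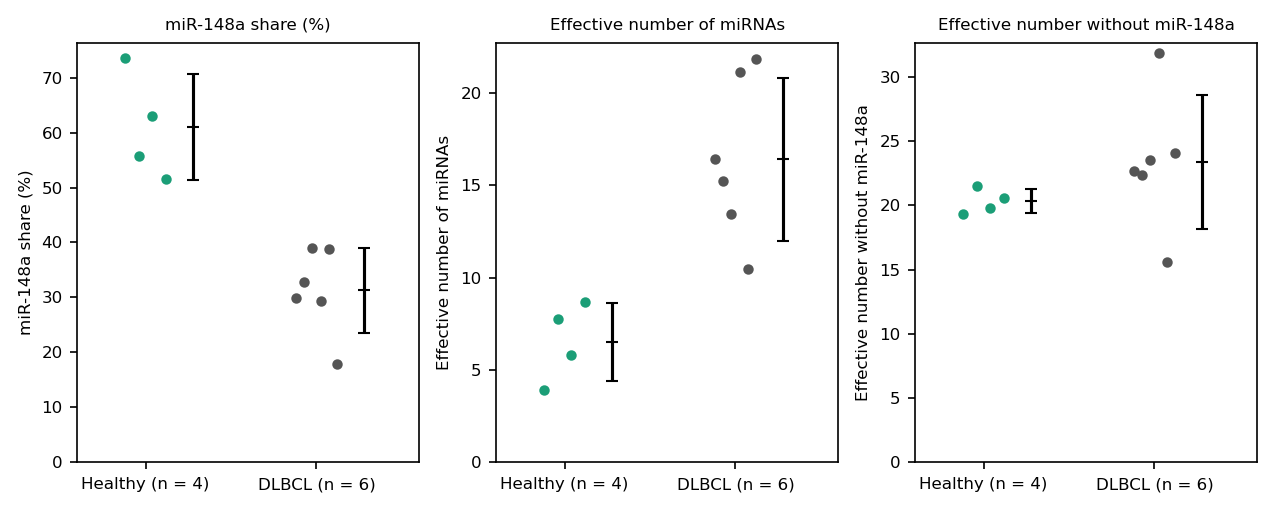
Points are libraries, and bars beside them give the mean and SD of each group, for the miR-148a share of miRNA reads (%), the effective number of miRNAs, and the effective number without miR-148a. Healthy and DLBCL libraries were apart in the first and second plots, and the healthy libraries lay within the DLBCL range in the third.

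On average the healthy libraries also deviated less from their group's mean than the DLBCL libraries did. The measure was the mean absolute deviation of a library from its group's mean, in log2 CPM over miRNAs of at least 10 CPM. It was multiplied by the square root of n/(n-1) to allow for the group's size. It was 0.42 ± 0.15 (SD, n = 4) in healthy nodes and 0.90 ± 0.34 (SD, n = 6) in DLBCL. The difference had a permutation p of 0.0286, and 0.050 after adjustment over the 7 values, which is not under 0.05, and the groups overlapped. Healthy3 and Healthy4 deviated by 0.27 and 0.29, Healthy2 and Healthy5 by 0.52 and 0.57. The p was 0.0714 without Healthy3 or without Healthy4, and 0.114 with libraries scaled by total miRNA reads. The deviations of a group share 1 mean, so they are not fully independent. They were also taken once from the actual groups and not anew for each split, so this permutation p is approximate.

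By edgeR's quasi-likelihood test, 14 of 247 miRNAs tested (5.67%) differed between healthy and DLBCL nodes at an adjusted p under 0.05 and a fold change over 2, of which 5 (2.02%) were higher in healthy nodes and 9 (3.64%) lower. Of the 20 most abundant miRNAs of the normal node, 2 were called, both higher, and DESeq2's Wald test also called 2. In CPM scaled over all 10 libraries, miR-150 had 7916 ± 5434 CPM in healthy nodes and 1009 ± 488 CPM in DLBCL, a log2 difference of 2.97 (SE 0.50, adjusted p = 0.00687 in edgeR). miR-146a had 10051 ± 1122 and 3660 ± 1493 CPM, a log2 difference of 1.46 (SE 0.35, adjusted p = 0.0397 in edgeR). The CPM values of healthy and DLBCL nodes did not overlap for 6 of the 20, and for 32 of all 247 tested (13%). miR-148a was higher by 1.58 on the log2 scale (SE 0.49) without passing the test (adjusted p = 0.0806 in edgeR). It passed in 3 of the 17 alternatives, with log2 differences of 1.85 without DLBCL5, 1.85 with at least 10 reads asked of every library and 2.81 among the libraries of lower Q30.

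The other miRNAs higher in healthy nodes were less abundant, namely miR-504 (log2 difference 1.72), miR-574 (1.6) and miR-151 (1.41). The largest differences in the other direction were those of miR-486 (-4.87), miR-451 (-4.53), miR-34a (-4.00), miR-31 (-3.64) and miR-1839 (-2.19). The groups overlapped for miR-34a and not for the others. miR-486 stood at 14.3 log2 CPM in DLBCL3 and at 8.29 to 10.8 in the other DLBCL libraries. Among the libraries of lower Q30, which do not include DLBCL3, its log2 difference was -1.83. There it was -3.05 for miR-451, -4.61 for miR-31 and -1.67 for miR-1839, so the order of these differences depends on the libraries used. Red blood cell miRNAs made up 3 of the 9 lower ones, counting both names of miR-486, which were read above as 1 measurement. The sum of the red blood cell list, to which both names also add, was 607 to 1059 TPM in healthy nodes against 10026 to 42687 TPM in DLBCL. The part of blood in this result was not tested. The 5 to 9 split became 5 to 3 with DESeq2's size factors and 1 to 22 with total miRNA reads, where the median log2 difference of all miRNAs tested moved from -0.13 to -0.82.

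The count rested on single libraries. It was 2 without Healthy2, 5 without Healthy3, 1 without Healthy4, 6 without Healthy5 and 3 without DLBCL1, and 22 and 23 without DLBCL3 and DLBCL4. The call of miR-451 held in each of the 17 alternatives, and that of miR-150 in 15 of them, the exceptions being the fit without Healthy4 (log2 difference 2.45, adjusted p = 0.0551 in edgeR) and the fit with the replicate number as a block (2.73, adjusted p = 0.0709 in edgeR). The calls of miR-504, miR-574 and miR-151 held in 9, 10 and 7 of 17. With total miRNA reads their log2 differences were 0.97, 0.77 and 0.54. The calls of miR-486, miR-31 and miR-1839 held in 9, 14 and 10 of 17. The call of miR-146a held in 9 of 17. It was lost without any one of the 4 healthy libraries, without DLBCL1 or DLBCL6, with total miRNA reads and with the block, while its log2 difference stayed between 0.80 and 1.78.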

How the data were processed

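The authors sequenced small RNA prepared with the NEBNext kit from 10 lymph nodes, trimmed the reads, mapped them with Bowtie 0.12.9 to CanFam3.1, removed repeats and other RNA classes, and counted miRBase miRNAs with a modified miRDeep2. They deposited a raw read count for 320 miRNAs per library and a TPM, which was checked here to be the count per 1000000 listed miRNA reads within 4.55e-05.

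Libraries were grouped by their titles. Shares, families and intervals (exact binomial) were computed in Python 3.11.15 with scipy 1.17.1, and spread, TMM factors and the comparison with DLBCL in R 4.3.3 with edgeR 4.0.16 (default filter on low counts, no covariate). DESeq2 1.42.0 was an alternative. Permutation tests were exact and two-sided, over libraries. Tests were run on simulated data first. With 1 library per dog, p-values rest on the spread between dogs.

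The lists, families and tests were chosen with earlier results of these data known. Named were the 20 most abundant miRNAs, members of the cell type lists and of the 10 largest families or those of at least 4 members, the 10 smallest and 10 largest SDs among at least 100 CPM, the miRNAs without reads in a group (the 10 with most reads elsewhere), pairs of arms, and the 5 largest rises and falls among called miRNAs whose groups did not overlap. miR-34a was added after its value was seen. The cluster neighbours, miR-8908, the smaller families and the miRNAs of the closing section outside these rules were named after their values were seen. Families follow names, not seeds, because mature sequences were not used here.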

Additional observations from a re-analysis of the deposited data

Results flagged for a closer look

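Among 133 values examined within groups, 8 had a highest or lowest library far from the others by Dixon's ratio (the gap to the nearest library over the whole range). Chance gives about 1 in 20, so 8 among 133 is near the count that chance alone gives. The ratios of single miRNAs were taken on log2 CPM, and the values beside them are in CPM. miR-197 was lowest in Healthy5 (ratio 0.906), with 66.7 CPM against 201 to 225 CPM. miR-15b was lowest in Healthy2 (ratio 0.872), with 102 CPM against 198 to 218 CPM. miR-148b was highest in Healthy2 (ratio 0.863), with 879 CPM against 724 to 743 CPM, and let-7e was lowest in Healthy3 (ratio 0.844), with 135 CPM against 169 to 177 CPM. The endothelial list, which is miR-126 alone, was highest in Healthy5 on the TPM scale (ratio 0.869). The pancreas list was highest in Healthy3 (ratio 0.841), at 1152 TPM against 988 to 1014 TPM, and the embryonic and germ cell list was lowest in Healthy2 (ratio 0.847), at 0.663 TPM. The miRNA reads of Healthy2, 34709421, were apart from those of the other 3 (ratio 0.917).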

How the results depend on the processing

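With miR-148a out of the total, the number of miRNAs holding 90% of the reads moved from 12 to 26, the let-7 share from 7.68% to 19.9% and that of the miR-148 and miR-152 family from 61.2% to 0.499%. Leaving out each healthy library gave 56.7% to 64.1% for miR-148a. The median spread moved from 0.45 to 0.64 with total miRNA reads, and ran from 0.28 to 0.49 with each library left out. The count of 14 miRNAs became 8 with DESeq2's size factors, 23 with total miRNA reads, 44 with the DESeq2 Wald test and 46 in the lower Q30 libraries, and ran from 1 to 23 with each library left out. The difference in effective number of -9.88 was -3.04 without miR-148a and -14.9 in the lower Q30 libraries, where the p cannot pass. That of the spread around the mean, -0.48, was -0.40 with total miRNA reads and -0.20 in the lower Q30 libraries, and ran from -0.58 to -0.33 with each library left out. The lower Q30 set has 2 DLBCL libraries, which by construction lie equally far from their shared mean (0.61), so that -0.20 is no check of this difference. The causes were not tested.

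With the replicate number as a block the count was 1. Libraries of a number share no animal, and the correlations of their deviations were 0.15, 0.24, -0.36 and -0.48 for numbers 2 to 5, so the numbers do not pair them.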

Other observations

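On the TMM scale Healthy5 exceeded the next healthy library by over 2-fold for 9 of the 147 miRNAs of at least 10 CPM, namely miR-126, miR-15a, miR-18a, miR-20a, miR-20b, miR-32, miR-374a, miR-497 and miR-590, and lay over 2-fold below the others for 5, miR-182, miR-183, miR-197, miR-28 and miR-30e. miR-32 had 5.53, 25.5, 14.4 and 134 TPM in Healthy2 to Healthy5, and miR-590 had 19.2, 68.2, 40.8 and 238 TPM. miR-182 was 2.21- to 3.4-fold above miR-183 in all 4.

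Healthy2 exceeded the next library by over 2-fold for 6 miRNAs, miR-1, miR-224, miR-379, miR-411, miR-889 and miR-95, and lay over 2-fold below the rest for 2, miR-138a and miR-350. Healthy3 stood over 2-fold above or below the rest for none and Healthy4 for 1, miR-425. On the TPM scale these counts were 0 above and 24 below for Healthy2, and 18 above and 0 below for Healthy5. These miRNAs were listed after the values were seen.

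In the X-linked cluster of miR-532, miR-502 and miR-500 kept their ratio to miR-532 in the 4 nodes, which exceeded them by 3.80-fold ± 0.550 and 4.80-fold ± 0.613 (SD, n = 4). miR-660 and miR-362 did not, with miR-532 above them by 5.87- to 24.0-fold and by 15.4- to 43.4-fold, in both cases least in Healthy5. With miR-148a out of the total, miR-378 took 0.346% ± 0.00812 (SD, n = 4) of the reads and let-7c 0.287% ± 0.0198, the lowest ratios of SD to mean among miRNAs of at least 1000 TPM.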
